A study of Mus musculus with 9 samples.

Results

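The genes described here are 5 members of the CCN family of secreted matrix proteins, 3 genes that the Hippo pathway controls or that act in it (Ankrd1, Amotl2 and Ajuba), and the genes of the transcriptional coactivators YAP (Yap1) and TAZ (Wwtr1). They were listed by name and found by their GENCODE M21 symbols, and all 10 were present among the 49315 gene identifiers of the count table. Poly-A selected RNA of 9 libraries was sequenced, all from a mouse pancreatic stellate cell line of the C57BL6 strain, which had become immortal by spontaneous outgrowth. All cells carried lentiviral Cas9 with a guide RNA and were used as a puromycin-selected polyclonal pool. After 48 h of culture there were 3 groups of 3 libraries: HIF1a-ko hypoxia (HIF1a sg2 guide, 0.5% oxygen), R26 hypoxia (the control guide R26 sg1, 0.5% oxygen) and R26 normoxia (R26 sg1, 20% oxygen). Cells with the HIF1a guide at 20% oxygen are not among these libraries. Differences between HIF1a-ko hypoxia and the R26 groups therefore cannot be told apart from differences between the guides or pools that do not depend on oxygen. The labels name no separate cultures behind the 3 libraries of a group, so p-values cover the spread among these libraries alone, and that spread may be technical.

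CCN proteins share a modular, cysteine-rich build, bind integrins and growth factors at the cell surface, and are made by fibroblasts and stellate cells when these lay down or remodel matrix. YAP and TAZ carry mechanical and growth signals. When the kinases of the Hippo pathway phosphorylate them they stay in the cytoplasm, and otherwise they enter the nucleus and switch on genes through the DNA-binding TEAD factors. Ccn1, Ccn2 and Ankrd1 are the usual readouts of that activity, and Amotl2 is a target whose product holds YAP back. A transcript level gives no information on where the YAP and TAZ proteins were in the cell.

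The promoters were searched for the letters that TEAD and HIF factors bind. RefSeq windows of 250 bases before the transcript start (GRCm38.p6) were found for 6 of the 10 genes, namely Ccn1, Ankrd1, Amotl2, Ajuba, Yap1 and Wwtr1. The letters CATTCC, the core that TEAD factors bind, were searched on both strands, and they stood in a window of each of these 6 genes, while 12.6% of the 32851 windows of the same length in the RefSeq table hold them. The genes were listed as members and targets of the YAP/TAZ pathway, so nothing is read from that difference. The core letters of HIF sites, ACGTG or GCGTG on either strand, stood in 3 of the 7 windows of these genes, against 38.6% of all windows. Of these, the Wwtr1 match is in a second, overlapping window, and the Wwtr1 window printed here has none. All 250 bases of the Ankrd1 window and 136 bases of the Amotl2 window lie in exons of the gene itself. The letters of the HIF search overlap each other where CACGTG is found, as in the Yap1 window. A match is a description of these letters and shows no binding. Windows of 3 genes that lie outside annotated exons are printed below, because Ccn1 and Wwtr1 fell clearly in HIF1a-ko cells while Ajuba fell little. They were picked by these changes, so nothing is read from the letters they hold. The Yap1 window, with 17 bases in exons of another gene, is not printed. It has 3 HIF matches, the most of these windows. Yap1 also fell little in HIF1a-ko against R26 hypoxia (log2 fold change -0.22, with -0.21 for Ajuba). Capitals mark CATTCC or its reverse complement and the HIF core letters, and each sequence runs 5′ to 3′ on the minus strand, which is the strand of all 3 genes.
Ccn1, chr3:145649986-145650235: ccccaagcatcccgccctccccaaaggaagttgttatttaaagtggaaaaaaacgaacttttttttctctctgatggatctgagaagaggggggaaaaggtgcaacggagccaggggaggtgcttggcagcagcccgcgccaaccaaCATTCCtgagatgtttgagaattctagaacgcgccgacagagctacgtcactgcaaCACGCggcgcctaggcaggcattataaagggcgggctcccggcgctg
Wwtr1, chr3:57575911-57576160: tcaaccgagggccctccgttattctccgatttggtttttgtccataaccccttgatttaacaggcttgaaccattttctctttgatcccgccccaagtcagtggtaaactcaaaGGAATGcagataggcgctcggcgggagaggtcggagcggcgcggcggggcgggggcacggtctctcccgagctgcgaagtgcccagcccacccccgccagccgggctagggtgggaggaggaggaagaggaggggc
Ajuba, chr14:54577662-54577911: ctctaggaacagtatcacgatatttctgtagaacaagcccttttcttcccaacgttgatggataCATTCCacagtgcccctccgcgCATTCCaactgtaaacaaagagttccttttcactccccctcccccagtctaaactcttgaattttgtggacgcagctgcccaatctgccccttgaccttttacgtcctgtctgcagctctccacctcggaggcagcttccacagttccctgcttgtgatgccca
In the Ccn1 window the TEAD letters begin 103 bases before the start and the HIF letters 47 bases before it. Ajuba holds the TEAD letters at 186 and 164 bases before the start, and Wwtr1 holds them 136 bases before it.

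Library totals ran from 43837809 to 107840223 counts. In each group 1 library (HIF1a-ko hypoxia 1, R26 hypoxia 3 and R26 normoxia 3) was sequenced more deeply and stood apart on the first principal component, so values are also given without these deeper libraries or within them where that matters. The deeper libraries also nearly lacked some epithelial transcripts given below, so depth class stands for more than depth. Hif1a itself was at 116.9 to 125 CPM in HIF1a-ko hypoxia, against 168.7 to 207.1 CPM in R26 hypoxia and 192.4 to 224.8 CPM in R26 normoxia, a weak check of the labels, since small Cas9 deletions can leave transcript levels unaltered. Of the defining stellate cell markers, Lrat, the enzyme that stores retinoids, had 1 count in all 9 libraries together, and desmin (Des) was at 0.246 to 3.73 CPM. Also low were Fap at 0.379 to 0.848 CPM and Lum at 0.236 to 4.04 CPM. Col1a1, Col1a2, Vim, Acta2, Thy1 and Pdgfrb were each at 320.4 CPM or more in every library. The 11 stellate cell and fibroblast markers did not move as a block. Their sum, made up mostly of Col1a1, Col1a2 and Vim, was 12585.3 to 13127 CPM in HIF1a-ko hypoxia, 18567.5 to 20211.1 CPM in R26 hypoxia and 16343.3 to 17891.5 CPM in R26 normoxia. Of the 10 tested, 4 were lower in HIF1a-ko than in R26 hypoxia and 1, Acta2, was higher (1142.6 ± 115.6 against 786.5 ± 51.1 CPM). Pdgfra was at 212 ± 10.3 CPM in HIF1a-ko hypoxia, 687.4 ± 23.3 CPM in R26 hypoxia and 486.3 ± 5.65 CPM in R26 normoxia. The 5 mesothelial markers also went apart: their sum was 39 to 41.5, 74.5 to 82.8 and 53.1 to 55.3 CPM in the same order of groups and followed Wt1, while Upk3b was higher in HIF1a-ko than in R26 hypoxia (7.7 ± 1.22 against 3.49 ± 0.85 CPM), and the median log2 fold change of the list was 0.22. The sum of 7 acinar and islet markers was 4.49 to 7.06, 10.7 to 12.9 and 10.7 to 14.9 CPM, with Ins1 and Ins2 at 0. It was made up mostly of 1 gene, Cela1, at 4.22 to 4.93, 9.9 to 11.5 and 9.86 to 12.7 CPM. Gcg went another way, with 0 counts in each deeper library and 17 to 85 in the shallower ones.

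Sums of the markers of 3 other cell types differed by depth class, without overlap. That of 7 epithelial markers was 15.5 to 61.3 CPM in HIF1a-ko hypoxia, 47.8 to 109.2 CPM in R26 hypoxia and 16.7 to 72 CPM in R26 normoxia, with 15.5 to 47.8 CPM in the deeper libraries and 58.3 to 109.2 CPM in the shallower ones. These markers did not move as a block. Epcam had 1 count in each deeper library and 154 to 305 counts in the shallower ones. Krt8 had 1 to 2 against 702 to 1072 counts, and Krt18 had 0 against 169 to 387. Krt19 and Muc1 were instead highest in R26 hypoxia. Krt19 was at 41.6 to 63.7 CPM there, 11.3 to 22.1 CPM in HIF1a-ko hypoxia and 10.9 to 23.7 CPM in R26 normoxia. For 6 leukocyte markers the sum was 16.3 to 30.5, 8.25 to 42.1 and 11.9 to 27.3 CPM in the 3 groups, with 8.25 to 16.3 CPM in the deeper libraries and 25.3 to 42.1 CPM in the shallower ones. For 6 endothelial markers it was 13.8 to 23, 9.31 to 16.8 and 11.3 to 18 CPM in the 3 groups, with 9.31 to 13.8 CPM in the deeper libraries and 14.5 to 23 CPM in the shallower ones. These markers went apart too. Cdh5 had 5 to 13 counts in the deeper libraries and 61 to 87 in the shallower ones. Vwf was at 1.26 to 2.34, 2.68 to 3.2 and 4.61 to 4.82 CPM in the 3 groups, and Egfl7 at 6.5 to 6.92, 2.87 to 4.37 and 3.77 to 5.24 CPM. The part of such cells in the results was not tested, and in bulk RNA fewer cells of a type and less RNA per cell cannot be told apart.

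Levels below are TMM-scaled CPM, which are counts relative to the library's scaled total. Each comparison was tested with edgeR's quasi-likelihood test in 1 fit of all 9 libraries, with Benjamini-Hochberg adjustment over the 18211 genes tested. All 10 genes passed the filter on low counts. A gene was called changed at an adjusted p below 0.05, and each log2 fold change is given with a standard error (SE). The SE was derived from the test, as the absolute log2 fold change divided by the square root of the F statistic.

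**Figure D1:**
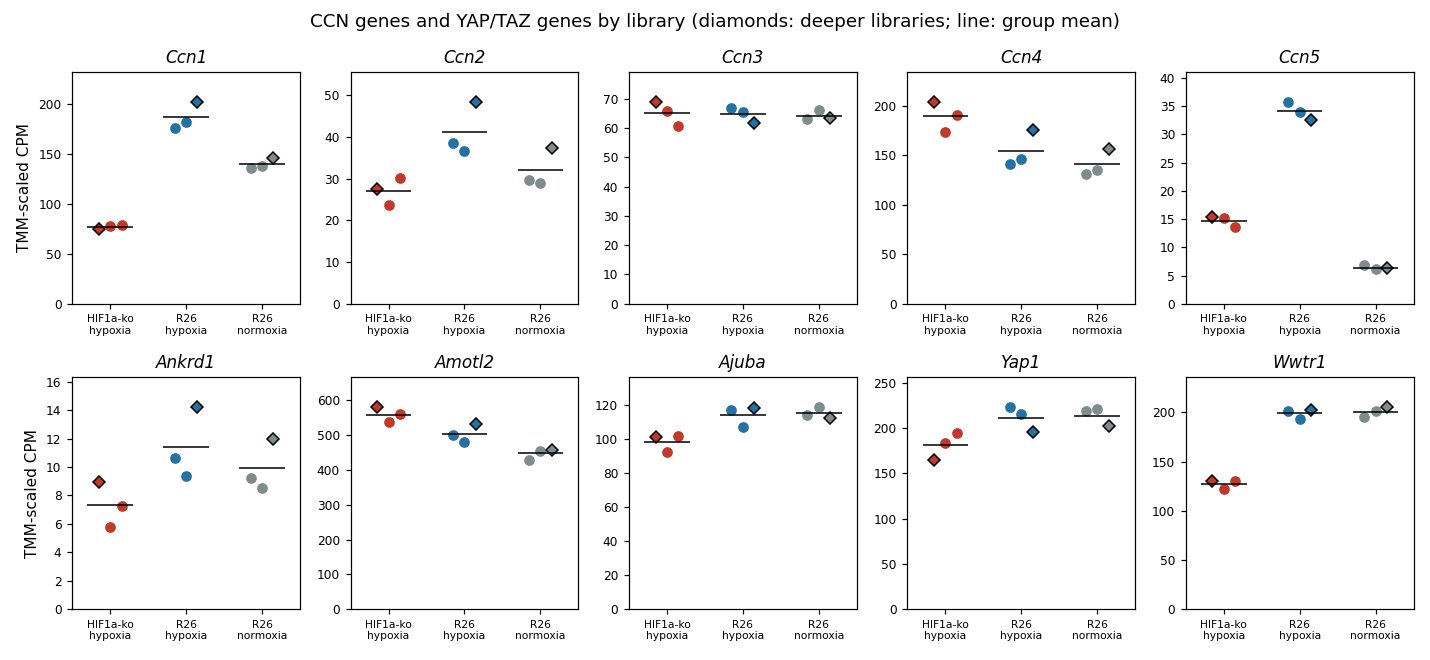
TMM-scaled CPM (y axis, from 0) of the 10 genes in each library, with the groups on the x axis, diamonds for the deeper library of a group and a line at the group mean. Ccn1 and Wwtr1 sit lowest in HIF1a-ko hypoxia, and Ccn5 is highest in R26 hypoxia (32.6 to 35.7 CPM).

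Low oxygen raised 3 of the 10 genes in R26 cells (30%) and lowered none, while 25.8% of all genes tested were called in either direction (13.1% higher and 12.7% lower), as were 35.7% of the 9961 well-counted genes, whose average log2 CPM is 3 or more as in all 10 genes. The libraries of the groups did not overlap for 3 of the 10 genes, against 38.4% of all genes tested. The genes that rose were Ccn5, Ccn1 and Amotl2. Levels of Yap1 and Wwtr1 differed by 0.02 or less on the log2 scale. The median log2 fold change of the 10 genes was 0.15, against -0.01 for all genes tested.

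Ccn5 (chromosome 2, 163820861 to 163833146, plus strand), a CCN protein that lacks the C-terminal cystine knot of the others and restrains growth of smooth muscle cells, had the largest change. Its levels were 35.7, 34 and 32.6 CPM in R26 hypoxia 1 to 3, against 6.85, 6.13 and 6.25 CPM in R26 normoxia 1 to 3. The groups were far apart, with every hypoxic library above every normoxic library. The fold change was 5.32, or 2.41 ± 0.08 (SE) on the log2 scale (adjusted p = 1.40e-07), with 2.38 between the deeper libraries and 2.44 in the shallower ones.

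Ccn1 (chromosome 3, 145646976 to 145649981, minus strand), an integrin-binding matricellular protein and an immediate early gene, was at 176.2, 181.6 and 201.8 CPM in R26 hypoxia, against 135.8, 138 and 146.3 CPM in R26 normoxia. The libraries did not overlap. Ccn1 rose 1.33-fold, or 0.41 ± 0.06 on the log2 scale (adjusted p = 8.38e-04). Amotl2 (chromosome 9, 102716672 to 102733418, plus strand), an angiomotin that binds YAP, was at 500.7, 479.6 and 532.1 CPM in R26 hypoxia, against 428.5, 455.6 and 458.8 CPM in R26 normoxia. Its libraries did not overlap either, but the change was small, 0.17 ± 0.05 on the log2 scale (adjusted p = 0.0411), and the call was lost on leaving out either of R26 hypoxia 1 and 3, or either of R26 normoxia 1 and 2 (adjusted p up to 0.146).

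Ccn2 (chromosome 10, 24595442 to 24598683, plus strand), the connective tissue growth factor that acts downstream of TGF-beta in fibrosis, was at 38.5, 36.6 and 48.4 CPM in R26 hypoxia, against 29.6, 28.9 and 37.5 CPM in R26 normoxia. The deeper library was the highest of both groups, and hypoxia 2 lay below normoxia 3, so the groups overlapped. A log2 fold change of 0.36 ± 0.14 was not called (adjusted p = 0.087), and with 1 library left out it ran from 0.22 without R26 hypoxia 3 to 0.51 without R26 normoxia 3, where it was called (adjusted p = 0.0268). With the replicate number as a block the log2 fold change was 0.38 ± 0.04 (adjusted p = 1.24e-04). The labels do not say that same-numbered libraries were paired. In the R26 groups the deeper libraries carry the same number, so this block also takes up depth class. Ccn2 was also called by DESeq2 (adjusted p = 0.0331) and in the 6 shallower libraries (adjusted p = 0.00707). Exons of Ccn2 overlap the opposite-strand gene Gm15270 over 665 bases, and that gene was at 0.183 to 0.796 CPM in the 9 libraries.

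Ccn4 (WISP1), a CCN protein first known as a Wnt target, was at 141, 146.7 and 175.6 CPM in R26 hypoxia, against 131.6, 135.6 and 156.7 CPM in R26 normoxia. Ankrd1, a nuclear ankyrin-repeat protein, was at 10.6, 9.35 and 14.2 CPM in R26 hypoxia, against 9.26, 8.52 and 12 CPM in R26 normoxia. For both genes the deeper library was the highest of its group and the groups overlapped (adjusted p = 0.413 for Ccn4 and 0.557 for Ankrd1). With the replicate block both were called, Ccn4 at 0.15 ± 0.03 on the log2 scale (adjusted p = 0.00742) and Ankrd1 at 0.21 ± 0.07 (adjusted p = 0.0279), so that 6 of the 10 genes were higher in that fit, which called 7409 genes in all. With no block, Ankrd1 was at -0.02 without R26 hypoxia 3 and 0.39 without R26 normoxia 3.

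Ccn3 (NOV), a CCN protein that opposes several actions of Ccn2, stood at 64.6 ± 2.68 CPM in R26 hypoxia and 64.2 ± 1.56 CPM in R26 normoxia (SD, n = 3 each). Ajuba, a LIM protein that restrains the LATS kinases of the Hippo pathway, stood at 113.9 ± 6.13 and 114.9 ± 3.21 CPM, in the same order of groups. Yap1 stood at 211.5 ± 13.8 and 213.9 ± 10.5 CPM, and Wwtr1 at 199.1 ± 5.2 and 200.8 ± 4.8 CPM. None of these 4 was called. Their SE of 0.04 to 0.07 on the log2 scale covers the spread among these libraries alone, which may be technical.

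**Figure D2:**
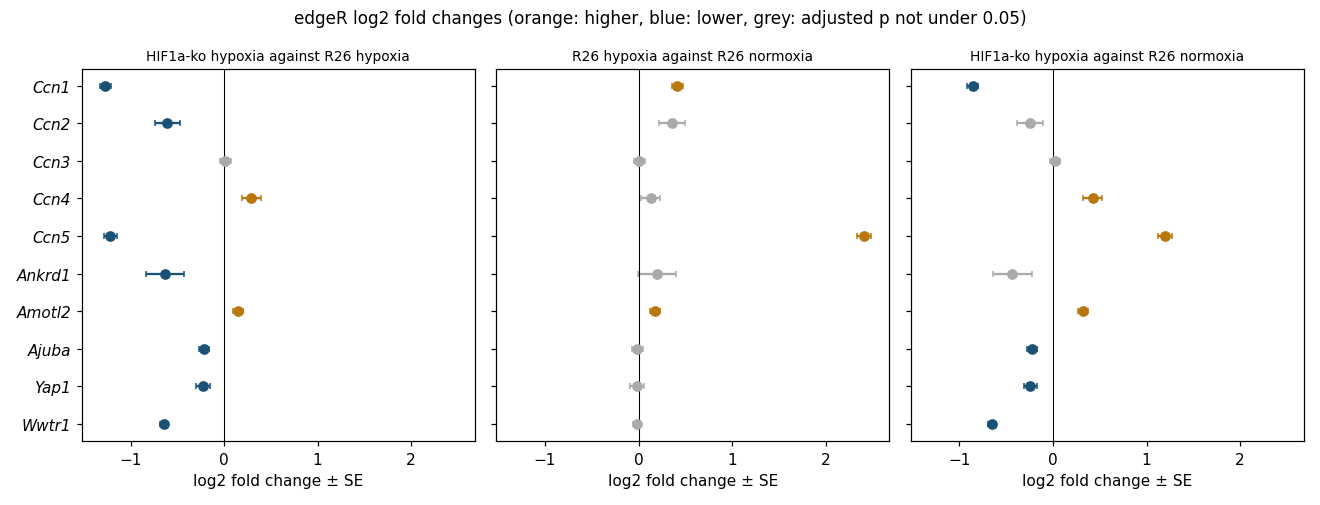
Log2 fold change with its SE (x axis) of the 10 genes in the 3 comparisons, coloured by the call of the edgeR test. Most genes lie left of 0 in HIF1a-ko against R26 cells in hypoxia, where 7 are called lower and 2 higher. The comparisons share libraries, so the panels are not independent of each other.

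HIF1a-ko hypoxia, set against R26 hypoxia, had lower levels of 7 of the 10 genes and higher levels of 2. That is 9 of 10 (90%), against 46.7% of all genes tested (22.6% higher and 24.1% lower) and 61.7% of the well-counted genes. For 8 of the 10 genes the libraries did not overlap, against 54.6% of all genes. The genes called lower were Ccn1, Ccn2, Ccn5, Ankrd1, Ajuba, Yap1 and Wwtr1, and those called higher were Ccn4 and Amotl2. The median log2 fold change was -0.41, against -0.01 for all genes tested.

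Ccn1 fell to 75.3, 77.5 and 79.1 CPM in HIF1a-ko hypoxia 1 to 3, against the 176.2 to 201.8 CPM of R26 hypoxia given above. Every HIF1a-ko library was below every R26 library at either oxygen level. The level was 2.41 times lower, a log2 fold change of -1.27 ± 0.06 (adjusted p = 2.47e-07), and it ranged from -1.31 to -1.19 over the 18 alternative analyses. Against R26 normoxia Ccn1 was also lower, by -0.86 ± 0.06 (adjusted p = 3.30e-06).

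Ccn5 fell to 15.3, 15.1 and 13.6 CPM in HIF1a-ko hypoxia, against 32.6 to 35.7 CPM in R26 hypoxia. That is a log2 fold change of -1.21 ± 0.07 (adjusted p = 8.81e-07). It remained above R26 normoxia in all 3 libraries, by 1.20 ± 0.08 on the log2 scale (adjusted p = 2.25e-06), or 2.29-fold. Its HIF1a-ko levels thus lay between those of the R26 groups, unlike those of Ccn1, which lay below both.

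Ccn2 was at 27.5, 23.8 and 30.1 CPM in HIF1a-ko hypoxia, against 36.6 to 48.4 CPM in R26 hypoxia. The groups stood apart, and the log2 fold change was -0.60 ± 0.14 (adjusted p = 0.00531), with -0.81 between the deeper libraries and -0.48 in the shallower ones. Against R26 normoxia the difference of -0.24 ± 0.14 was not called (adjusted p = 0.197), and it moved to -0.08 without R26 normoxia 3 and to -0.16 without HIF1a-ko hypoxia 2. Of 18 alternatives 2 called it, depth class as a term (adjusted p = 0.0366) and the replicate block (adjusted p = 0.0477).

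Ankrd1 was at 8.95, 5.81 and 7.27 CPM in HIF1a-ko hypoxia, against 9.35 to 14.2 CPM in R26 hypoxia. The libraries did not overlap, but the lowest hypoxic R26 library was close to the highest HIF1a-ko library. The log2 fold change was -0.63 ± 0.21 (adjusted p = 0.0301), with -0.67 between the deeper libraries and -0.61 in the shallower ones. The call was lost without any 1 of R26 hypoxia 3, HIF1a-ko hypoxia 2 and HIF1a-ko hypoxia 3 (adjusted p = 0.12, 0.102 and 0.091). Against R26 normoxia Ankrd1 stood at -0.44 ± 0.21 (adjusted p = 0.127), and with 1 library left out it ran from -0.60 without HIF1a-ko hypoxia 1 to -0.23 without R26 normoxia 3 (adjusted p = 0.475). Of 18 alternatives 2 called it, the shallower libraries (adjusted p = 0.0132) and depth class as a term (adjusted p = 0.00104).

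Of the coactivators, Wwtr1 (chromosome 3, 57455649 to 57575910, minus strand) had the larger difference. Its libraries held 130.4, 122 and 130.1 CPM in HIF1a-ko hypoxia, against 201.1, 193.1 and 202.9 CPM in R26 hypoxia and 195.6, 201.6 and 205.1 CPM in R26 normoxia. All HIF1a-ko libraries were well below all 6 R26 libraries. The log2 fold change was -0.64 ± 0.04 against R26 hypoxia (adjusted p = 2.46e-06) and -0.66 ± 0.04 against R26 normoxia (adjusted p = 2.99e-06). Yap1 (chromosome 9, 7931999 to 8004596, minus strand) was at 164.3, 183.7 and 195.1 CPM in HIF1a-ko hypoxia, against 222.9, 215.4 and 196.2 CPM in R26 hypoxia and 218.8, 221 and 201.9 CPM in R26 normoxia. The deeper library was the lowest of each group, and the highest HIF1a-ko library was within about 1 CPM of the lowest R26 library.

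For Yap1 the log2 fold change was -0.22 ± 0.07 against R26 hypoxia (adjusted p = 0.0308) and -0.24 ± 0.07 against R26 normoxia (adjusted p = 0.0252). The call against R26 hypoxia was lost without any 1 of R26 hypoxia 1, R26 hypoxia 2, HIF1a-ko hypoxia 1 and HIF1a-ko hypoxia 2, where the log2 fold change was -0.15 to -0.24, and with library totals as the only scaling (-0.16, adjusted p = 0.0895). With the replicate block and in the compared groups alone that call was lost too, so 7 of 18 alternatives did not make it. The call against R26 normoxia was lost in 6 of 18 alternatives (adjusted p up to 0.129). These were the fits without R26 normoxia 1 or 2 or HIF1a-ko hypoxia 1 or 2, with library totals only and with the replicate block.

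Ajuba was at 101.1, 92.2 and 101.4 CPM in HIF1a-ko hypoxia, against 116.8, 106.9 and 118.1 CPM in R26 hypoxia. The groups did not overlap, and the difference was small, -0.21 ± 0.06 on the log2 scale (adjusted p = 0.0109), with -0.23 ± 0.06 against R26 normoxia (adjusted p = 0.00931, and 0.052 with no filter on low counts).

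Ccn4 and Amotl2 went the other way. Ccn4 was at 203.8, 173.3 and 190.8 CPM in HIF1a-ko hypoxia, against 141, 146.7 and 175.6 CPM in R26 hypoxia. These groups overlapped through HIF1a-ko hypoxia 2 and R26 hypoxia 3, and the log2 fold change was 0.29 ± 0.10 (adjusted p = 0.0363). The call was lost without any 1 of R26 hypoxia 1, R26 hypoxia 2, HIF1a-ko hypoxia 1 and HIF1a-ko hypoxia 3 (adjusted p up to 0.119). Within depth classes the difference was 0.22 between the deeper libraries and 0.34 in the shallower ones, where the groups were called apart (adjusted p = 1.52e-04). Against R26 normoxia Ccn4 was higher in all 3 libraries, by 0.42 ± 0.10 (adjusted p = 0.00743).

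Amotl2 was at 580.1, 537.2 and 560 CPM in HIF1a-ko hypoxia, above the 479.6 to 532.1 CPM of R26 hypoxia in every library. The log2 fold change was 0.15 ± 0.05 (adjusted p = 0.0432), and 9 of the 18 alternatives did not call it, among them the fits without R26 normoxia 1, R26 normoxia 2, R26 hypoxia 1, R26 hypoxia 2, HIF1a-ko hypoxia 1 and HIF1a-ko hypoxia 3 (adjusted p up to 0.149). Against R26 normoxia it was higher by 0.32 ± 0.05 (adjusted p = 9.79e-04). Amotl2 was the only gene of the 10 called higher in all 3 comparisons, which share libraries.

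Ccn3 was at 68.8, 65.9 and 60.8 CPM in HIF1a-ko hypoxia, against 66.9, 65.4 and 61.6 CPM in R26 hypoxia and 63.1, 66 and 63.5 CPM in R26 normoxia. All 9 libraries lay within the same narrow band, and the log2 differences were 0.01 ± 0.06 and 0.02 ± 0.06 (adjusted p = 0.871 and 0.796). Against R26 normoxia, HIF1a-ko hypoxia differed in 7 of the 10 genes (70%), 3 higher (Ccn5, Ccn4 and Amotl2) and 4 lower (Ccn1, Wwtr1, Yap1 and Ajuba), while 42% of all genes tested (19.9% higher and 22.1% lower) and 55.7% of the well-counted genes were called. The libraries did not overlap for 7 of the 10 genes, against 53.2% of all genes tested. The median log2 fold change was -0.23, against -0.01 for all genes.

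Ccn6 completes the CCN family and is not among the 10 genes. It had 8 to 64 counts per library, at 0.666, 0.625 and 0.651 CPM in HIF1a-ko hypoxia, 0.239, 0.298 and 0.444 CPM in R26 hypoxia and 0.271, 0.186 and 0.169 CPM in R26 normoxia. It was higher in HIF1a-ko than in R26 hypoxia (log2 fold change 0.86 ± 0.26, adjusted p = 0.0229). Exons of Ccn6 overlap those of Tube1 on the opposite strand over 482 bases, and Tube1 moved alongside, at 11 to 11.8, 6.8 to 7.36 and 3.32 to 4.05 CPM in the same groups. The strand setting of the counting is not given in the sources used here, so reads of these genes cannot be told apart.

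Per transcript length, in TPM (transcripts scaled by union exon length), the highest levels in R26 hypoxia were those of Ccn1 (358.1 ± 44.6, SD, n = 3) and Amotl2 (310.4 ± 30.6), which overlap within their SD. Wwtr1 followed at 161.1 ± 10.7, then Ajuba (120.9 ± 10.4) and Ccn4 (107.7 ± 18.6), which again overlap. Yap1 (88.2 ± 1.4) and Ccn3 (87 ± 0.753) lay together, above Ccn5 (68.4 ± 0.9) and Ccn2 (55.9 ± 11.5), and Ankrd1 was lowest at 15.4 ± 4.17. In HIF1a-ko hypoxia Amotl2 led at 337.1 ± 15.5 TPM and Ccn1 was at 145.2 ± 2.16 TPM, near Ccn4 at 129 ± 11.3 TPM. In R26 normoxia Ccn5 (12.2 ± 0.618 TPM) was as low as Ankrd1 (12.8 ± 3.29 TPM).

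**Figure D3:**
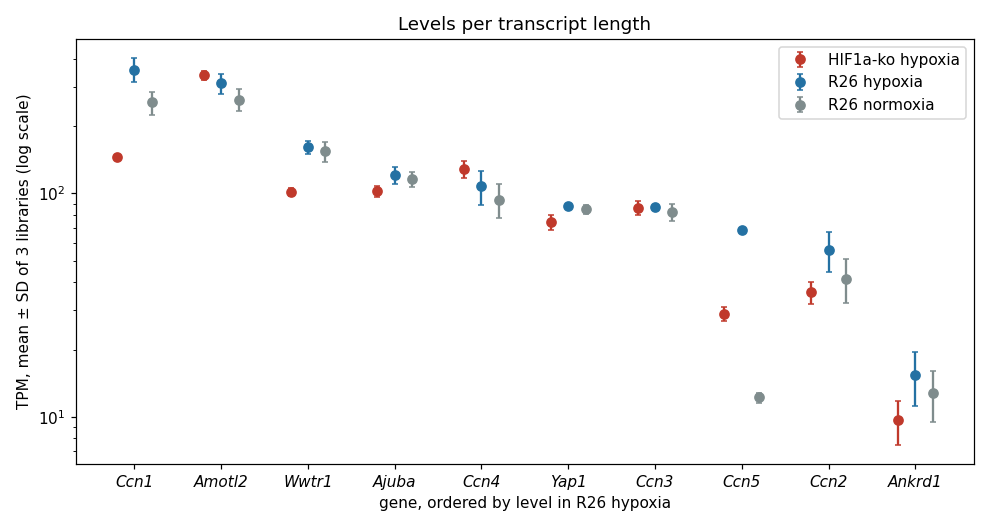
Mean TPM with SD of 3 libraries (y axis, log scale) of the 10 genes, ordered by their level in R26 hypoxia. Ccn5 spans the widest range between groups, 28.9 TPM in HIF1a-ko hypoxia, 68.4 TPM in R26 hypoxia and 12.2 TPM in R26 normoxia.

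The shares of listed genes called below stand beside 61.7% of the well-counted genes and 46.7% of all genes in HIF1a-ko against R26 hypoxia, 35.7% and 25.8% in R26 hypoxia against R26 normoxia, and 55.7% and 42% in HIF1a-ko hypoxia against R26 normoxia. Other YAP/TAZ target genes went both ways. Of 18 listed targets, 10 were lower and 4 higher in HIF1a-ko than in R26 hypoxia (77.8% called, median log2 fold change -0.17). Ccdc80, a secreted matrix-associated protein, fell to 285 ± 6.21 CPM in HIF1a-ko hypoxia, against 591.1 ± 30.3 CPM in R26 hypoxia (log2 fold change -1.05 ± 0.06), and Rbms3, an RNA-binding protein, was lower by -0.78 ± 0.13. Gadd45a, a stress-induced regulator of growth arrest, was higher, at 51.5 ± 4.47 against 32.3 ± 4.43 CPM, and its exons overlap an opposite-strand gene, E230016M11Rik, over 337 bases. Between R26 hypoxia and R26 normoxia 5 of the 18 were higher and 2 lower (38.9% called, median 0.05), a share near the 35.7% of well-counted genes. Igfbp3, which binds insulin-like growth factors, rose 1.66-fold and the tissue factor gene F3 rose 1.26-fold, while Fjx1 fell to 4.64 ± 0.129 CPM in R26 hypoxia, against 11.7 ± 0.561 CPM in R26 normoxia. Between HIF1a-ko hypoxia and R26 normoxia 3 were higher, among them Crim1 (log2 fold change 0.73 ± 0.06), and 8 lower (61.1% called).

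**Figure D4:**
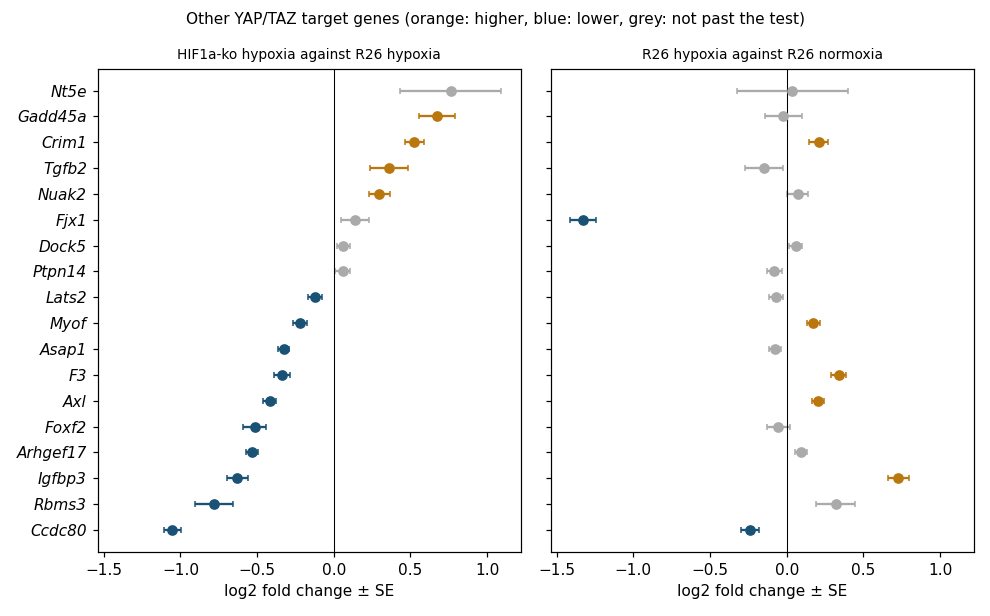
Log2 fold change with its SE (x axis) of 18 further YAP/TAZ target genes in 2 comparisons that share the R26 hypoxia libraries. On the left, 10 genes are called lower and 4 higher, with Ccdc80 lowest at -1.05. On the right, 5 are higher and 2 lower.

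Of 24 genes of Hippo kinases, adaptors, TEAD factors and their cofactors, 14 were lower and 5 higher in HIF1a-ko than in R26 hypoxia (79.2% called, median -0.21). Wwc1 (KIBRA), a scaffold that activates the LATS kinases, was at 49.9, 47.4 and 59.1 CPM in HIF1a-ko hypoxia, against 20.7, 17.9 and 20.9 CPM in R26 hypoxia (log2 fold change 1.39 ± 0.09, adjusted p = 2.08e-06). The TEAD genes differed among themselves: Tead4 was higher in HIF1a-ko cells (1.32 ± 0.10), whereas Tead3 (-0.92 ± 0.06), Tead2 (-0.42) and Tead1 (-0.31) were lower. Tead1 was at 288.7 to 326.5 CPM in HIF1a-ko hypoxia and 353.8 to 426.4 CPM in R26 hypoxia. The angiomotins, which bind YAP, went apart too: Amot was at 53.8 to 58.8 CPM in HIF1a-ko hypoxia, against 101.4 to 102.1 CPM in R26 hypoxia (-0.85 ± 0.05), and Amotl1 was not called (0.11 ± 0.05, adjusted p = 0.0928).

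Low oxygen in R26 cells raised 6 and lowered 4 of these 24 genes (41.7% called, median 0.05), a share near the 35.7% of well-counted genes. Tead4 fell to 3.21 ± 0.276 CPM in R26 hypoxia, against 5.83 ± 0.205 CPM in R26 normoxia, Map4k4, a kinase upstream of LATS, fell 1.3 times, and Stk3 (MST2), a core Hippo kinase, rose 1.29-fold. Between HIF1a-ko hypoxia and R26 normoxia 7 were higher and 8 lower (62.5% called), with Amot at -1.09 ± 0.05.

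MRTF and SRF answer to actin and share targets with YAP and TAZ. Of 17 genes of that list 1 was higher and 11 were lower in R26 hypoxia than in R26 normoxia (70.6% called, median -0.38). Acta2, the smooth muscle actin, fell 1.93 times, and Tpm1, a tropomyosin, fell 1.52 times, whereas Ccn1 rose and Ankrd1 was not called in the same libraries. Vcl, vinculin, also fell (log2 fold change -0.75), and shares 25.1% of its 50-base words with other genes, mainly Ap3m1, which overlaps it on the opposite strand. In HIF1a-ko against R26 hypoxia 2 were higher and 10 lower (70.6% called), with Fhl2, a LIM protein, at 46.3 ± 2.58 against 120.4 ± 8.62 CPM. Against R26 normoxia all 17 listed genes were called, 1 higher and 16 lower (median -0.51), for instance Myl9, a myosin light chain, at -0.97 ± 0.07.

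Ccn1 and Ccn2 also answer to serum and TGF-beta. Of 18 immediate early genes 11 were higher and 1 lower in R26 hypoxia than in R26 normoxia (66.7% called, median 0.47), with the phosphatase gene Dusp1 at 114.5 ± 21.1 against 36.2 ± 1.82 CPM and Fos, a subunit of AP-1, at 11.4 ± 1.69 against 3.95 ± 1.08 CPM. In HIF1a-ko against R26 hypoxia 3 were higher and 13 lower (88.9% called, median -0.67), with Egr1, a zinc finger factor, at 51.6 ± 5.38 against 130.8 ± 21.3 CPM. The largest change was a rise, that of Atf3, at 4.5 ± 0.424 against 1.92 ± 1.01 CPM (adjusted p = 0.0124). Between HIF1a-ko hypoxia and R26 normoxia 5 were higher and 5 lower (55.6% called, median 0.000). That share is near the 55.7% of well-counted genes. Of 10 genes that TGF-beta induces 6 were higher and 1 lower in R26 hypoxia than in R26 normoxia (70% called). In HIF1a-ko against R26 hypoxia 1 was higher and 8 lower (90% called), with Tgfbi, a matrix protein, at 47.6 ± 4.13 against 153.7 ± 10.1 CPM and Ltbp2, which binds microfibrils, at -1.78 ± 0.08. Exons of Ltbp2 overlap those of D030025P21Rik on the opposite strand over 764 bases.

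Ccn4 is a known Wnt target, and 7 of 12 listed Wnt targets passed the filter. In HIF1a-ko against R26 hypoxia 5 of these (71.4%) were called: 4 were higher (Apcdd1, Znrf3, Lef1 and Nkd2) and 1, Nkd1, a feedback inhibitor of Wnt signalling, was lower (22.9 ± 0.179 against 38.4 ± 2.79 CPM). Lef1 (0.823 against 0.2 CPM) and Nkd2 (1.08 against 0.397 CPM) were near the floor. So were Axin2 (0.811 against 0.545 CPM) and Tcf7 (0.458 against 0.439 CPM), which were tested and not called (adjusted p = 0.27 and 0.801). In R26 hypoxia against R26 normoxia Apcdd1 (-0.96) and Znrf3 (-0.41) were lower and none was higher (28.6% called). Between HIF1a-ko hypoxia and R26 normoxia 2 were higher and 2 lower (57.1% called). There Apcdd1 was lower (-0.46), and Znrf3 was not called (17.7 ± 0.558 against 17.4 ± 1.57 CPM). Of 8 receptors that bind CCN proteins, 5 were lower and 2 higher in HIF1a-ko than in R26 hypoxia (87.5% called). Itga6, an integrin subunit that binds laminin and CCN1, was at 34.5, 35.7 and 35 CPM in HIF1a-ko hypoxia, against 10.3, 12.9 and 8.26 CPM in R26 hypoxia (1.76 ± 0.15), and Itgav, a subunit of the vitronectin receptors, was lower (-0.49 ± 0.07). In R26 hypoxia against R26 normoxia Lrp1, Itgav and Itga5 rose by 0.22 to 0.31 on the log2 scale, which is 37.5% of the 8, near the 35.7% of well-counted genes.

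**Figure D5:**
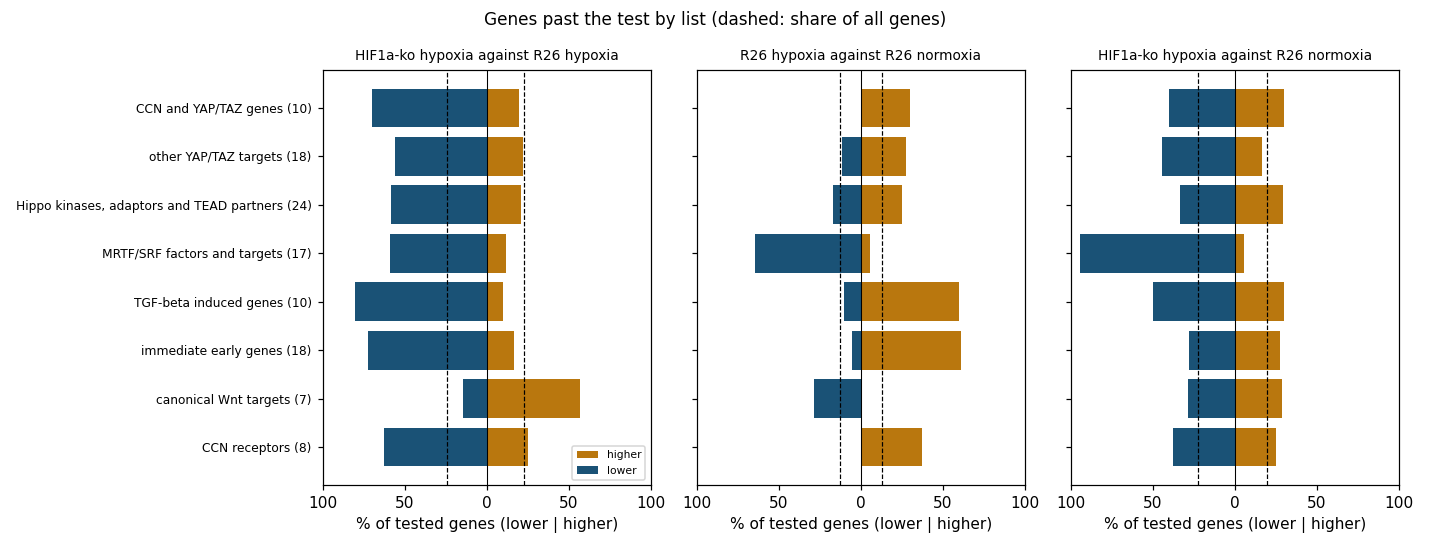
Share of the tested genes of each list called lower (left of 0) or higher (right of 0) in the 3 comparisons, in percent (x axis), with the number tested in parentheses and dashed lines at the share of all genes in each direction. In HIF1a-ko against R26 hypoxia the lower side is longer for every list except the Wnt targets, and the MRTF/SRF list is the one with most genes lower in the other comparisons.

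Over the 9 libraries, the genes whose log2 CPM ran most like that of Ccn1 among 9653 genes searched were Scn7a (Pearson's r = 0.998), Npy4r (0.997) and Dclk1 (0.997). Those most like Ccn2 were Arl5a (0.980), Pdk3 (0.979) and Sgk1 (0.978), and those most like Ankrd1 were Vgll3, a TEAD cofactor (0.988), Runx2 (0.985) and Tfdp2 (0.982). Among the 10 genes, Ccn1 ran with Wwtr1 at 0.935 and Ccn2 with Ankrd1 at 0.903, while Ccn1 and Ccn4 stood at -0.633. These values are descriptions, since the points share 3 groups and 2 depth classes.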

How the data were processed

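Poly-A RNA of 9 libraries was sequenced, and the authors deposited raw counts for each Ensembl identifier. The submitters' processing notes name GRCm38 and the tools bcl2fastq 2.17, Trimmomatic, STAR, DESeq2 and featureCounts; their settings, the annotation release and the strand setting were not given in the sources used here. Columns were matched to samples by name. Of 49315 identifiers 49056 were paired with a GENCODE M21 symbol. Totals were 43837809 to 107840223 counts per library. Among the 10 genes, counts were lowest for Ccn5 (264 in R26 normoxia 2) and Ankrd1 (307 in HIF1a-ko hypoxia 2), where counting error weighs most.

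The test was edgeR 4.0.16 under R 4.3.3 (glmQLFit with legacy set to FALSE, glmQLFTest, two-sided, TMM, filterByExpr, group as the only term), tested beforehand on simulated data. TPM used union exon lengths of GENCODE M21. Promoters are RefSeq sequences of GRCm38.p6. Alternatives were other scalings, no filter, DESeq2 1.42.0, a replicate block, depth class as a term, the 6 shallower libraries, the compared groups alone, and each library left out. Depth class was set at the largest gap between totals. Deviations from group means of same-numbered R26 libraries correlated at 0.480, 0.530 and 0.855. For pairs with HIF1a-ko hypoxia the values ran from -0.667 to 0.587. The deeper library carries the same number in both R26 groups and another number in HIF1a-ko hypoxia. These correlations therefore cannot tell paired libraries from libraries of the same depth class.

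The genes and lists were chosen with earlier results of these data known. The rule names the 10 genes, Ccn6, Hif1a, up to 3 changed genes of each list and comparison that average 1 or more in log2 CPM, and 3 genes per likeness search. Tead1, Tead2, Amotl1, Itga5, Lrp1, Lef1, Nkd2, Axin2, Tcf7, Tube1, Gm15270 and the marker genes were named after their values were seen.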

Additional observations from a re-analysis of the deposited data

How the results depend on the processing

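Over 18 alternatives, the calls and directions of Ccn1 and Ccn5 in all 3 comparisons, of Wwtr1 in both comparisons with HIF1a-ko hypoxia, of Ccn2 and Ajuba in HIF1a-ko against R26 hypoxia, and of Ccn4 and Amotl2 in HIF1a-ko hypoxia against R26 normoxia held in each. In R26 hypoxia against R26 normoxia, 3 of the 10 genes and 4697 genes in all were changed. The replicate block gave 6 and 7409, adding Ccn2, Ccn4 and Ankrd1 and changing no other call among the 10 genes, and depth class as a term gave 5 and 7095; the cause was not tested. With 1 library left out, the count of the 10 genes was 2 to 4 there, 6 to 9 in HIF1a-ko against R26 hypoxia (9 with all libraries) and 6 to 7 in HIF1a-ko hypoxia against R26 normoxia (7 with all libraries). In HIF1a-ko against R26 hypoxia, where the deeper libraries carry different numbers, the replicate block gave 6 of the 10 genes.

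Sign changes were seen only among differences that were not called. In R26 hypoxia against R26 normoxia, Ccn3 was at -0.0077 with library totals only. Ajuba and Wwtr1 were at 0.0041 and 0.0037 with no filter, at 0.0070 and 0.0076 with the replicate block and at 0.0072 and 0.0076 in the compared groups alone. Yap1 was at 0.0029 with the block, 0.0047 in the compared groups alone and 0.0123 in the shallower libraries, where Wwtr1 was at 0.0065. In the shallower libraries Ccn3 was at -0.0585 against R26 hypoxia and -0.0065 against R26 normoxia in HIF1a-ko hypoxia. With 1 library left out, ranges in R26 hypoxia against R26 normoxia were -0.0151 to 0.0436 for Ccn3, -0.0383 to 0.0332 for Ajuba, -0.0548 to 0.0365 for Yap1, -0.0306 to 0.0172 for Wwtr1 and -0.0190 to 0.39 for Ankrd1, and -0.0227 to 0.0759 for Ccn3 in HIF1a-ko against R26 hypoxia. Depth limits Ccn6, with 8 to 64 counts per library.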
